A study of Mus musculus with 24 samples.

Results

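The genes described here encode the machinery of oxidative phosphorylation in mouse liver. Members were taken by gene name from the array: every gene probe whose name begins with Nduf followed by a, b, c, s or v, names Sdha to Sdhd, and names beginning with Uqcr, with Cox followed by a digit from 4 to 8, or with Atp5. The rule found 92 genes with 143 probes, of which 90 genes passed the filter on dim probes, among 21331 genes that passed it in all. The members that did not pass were Cox8b, the cytochrome oxidase isoform of heart and muscle, and Cox8c, an isoform of testis. Cox8b was above background on 0 to 2 of 6 arrays in each group and Cox8c on 0 arrays. By role, the members that passed comprised 36 subunits of complex I, 4 of complex II, 8 of complex III, 11 of complex IV and 16 of the ATP synthase, 75 subunits in all, together with 6 tissue-restricted isoforms and 9 assembly factors that share the names. Ndufa4 was counted with complex IV, where the protein is now placed, and Atp5c1-ps, a pseudogene of the gamma subunit, with the ATP synthase. The roles were assigned by patterns of gene names, which placed Cox7a2l with complex IV and Atp5s with the assembly factors.

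Oxidative phosphorylation couples the oxidation of NADH and succinate to ATP synthesis at the inner mitochondrial membrane. Complexes I and II pass electrons to ubiquinone, complex III passes them on to cytochrome c, complex IV hands them to oxygen, and the ATP synthase uses the proton gradient that complexes I, III and IV build. Most subunits are encoded in the nucleus and joined to a small core encoded by mitochondrial DNA, with the help of assembly factors that are absent from the finished complexes, and hepatocytes rely on the chain to reoxidise the carriers reduced by fatty acid oxidation.

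Gene expression was measured on 24 single-colour oligonucleotide arrays, each hybridised with liver RNA of 1 male C57Bl/6J mouse, in 4 groups of 6. The LWT vehicle and LWT CL316243 groups expressed PPARα in hepatocytes, and the LKO vehicle and LKO CL316243 groups did not, by the series title. PPARα is the fatty acid-sensing nuclear receptor that drives genes of fatty acid oxidation. CL316243 is an agonist of the beta3 adrenergic receptor, a receptor known mainly from adipocytes. It was given by gavage at 3 mg/kg at Zeitgeber time 10 h in 0.5% carboxymethyl cellulose, the controls received this vehicle alone, and all livers were taken at 16 h. The mice had free access to standard chow under a cycle with 12 h of light, and their ages are not given in the sources used here. The labels name neither the allele of Ppara, the promoter that drove its deletion nor the part of the gene removed. The series asks whether the liver's response to the agonist needs hepatocyte PPARα, and here that question is put to the respiratory chain.

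The genotype labels were checked on the Ppara probe with the higher signal, whose target starts at base 2273 of the transcript. Levels are given throughout as log2 of the processed intensity relative to the array's 75th percentile, so that 0 is the 75th percentile. Ppara lay between 5.45 and 5.93 in LWT vehicle livers and between 4.81 and 5.18 in LKO vehicle livers, without overlap. The difference under vehicle was -0.68 ± 0.20 (SE, adjusted p = 0.158), and under CL316243 it was -1.91 ± 0.20 (adjusted p = 3.6e-07). Whether this probe lies inside the deleted part is not given. All 6 hepatocyte markers were above background on every array. With CL316243 0 of them were called in LWT and 1 was called lower in LKO, with values in LKO from -0.31 to 0.15. In either genotype 0 of 7 Kupffer cell and macrophage, 0 of 3 adipocyte and 0 of 3 skeletal muscle markers were called. The summed level of the neutrophil and lymphocyte markers ranged from 1.89 to 2.88 under vehicle and from 2.01 to 5.50 under CL316243, and that of the cholangiocyte markers from 1.81 to 2.74 and from 2.07 to 3.82. Of 5 markers that passed the filter in each list, 2 neutrophil and lymphocyte markers were called higher and 1 lower in LWT and 3 higher in LKO, and 1 and 2 cholangiocyte markers were called higher, while the B cell marker Cd79a did not pass. In the same way 3 of 6 endothelial and 2 of 6 stellate markers were called in either direction in LWT, and 2 of 6 and 1 of 6 in LKO, while 38.3% of all genes were called in LWT and 40.3% in LKO. The summed stellate markers averaged 5.69 with vehicle and 5.95 with CL316243 in LWT and 5.74 and 5.98 in LKO. The part of these cell types in the results below was not tested. In bulk liver, fewer cells of a type and less RNA per cell cannot be told apart.

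Promoters of members that the results turn on are shown first, as the 250 bases before the RefSeq start (build GRCm38.p6), read 5′ to 3′ on the strand of the gene. Of the 90 members, 74 had an entry; those without one included Atp5a1, Atp5c1-ps, Cox4i1, Cox4i2, Cox6a2, Cox6c, Ndufa2, Ndufa4l2, Ndufaf6, Ndufb9, Ndufs1, Sdhc, Uqcrb, Uqcrc2 and Uqcrq. Ndufab1 (chr7:122101849-122102098 on the minus strand) is shown because its response depended on genotype. Ndufaf3 (chr9:108567437-108567686 on the minus strand) and Ndufaf4 (chr4:24897833-24898082 on the plus strand) are shown as assembly factors that fell. Atp5g2 (chr15:102671048-102671297 on the minus strand) and Sdhd (chr9:50603850-50604099 on the minus strand) are shown as subunits that fell in both genotypes. Capitals mark the NRF1 core, a palindrome, in Ndufaf4 and Atp5g2 and the ETS core CCGGAAG, on either strand, in Sdhd.
Ndufab1: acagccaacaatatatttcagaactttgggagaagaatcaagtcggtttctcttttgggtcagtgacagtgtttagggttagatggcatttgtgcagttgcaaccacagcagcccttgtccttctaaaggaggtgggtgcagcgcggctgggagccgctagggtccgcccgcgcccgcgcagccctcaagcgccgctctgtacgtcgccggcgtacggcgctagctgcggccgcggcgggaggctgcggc
Ndufaf3: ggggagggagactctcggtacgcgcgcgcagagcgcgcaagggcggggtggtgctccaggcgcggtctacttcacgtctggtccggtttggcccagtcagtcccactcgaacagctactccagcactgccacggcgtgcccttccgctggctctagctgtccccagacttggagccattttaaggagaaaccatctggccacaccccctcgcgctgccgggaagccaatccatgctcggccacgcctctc
Ndufaf4: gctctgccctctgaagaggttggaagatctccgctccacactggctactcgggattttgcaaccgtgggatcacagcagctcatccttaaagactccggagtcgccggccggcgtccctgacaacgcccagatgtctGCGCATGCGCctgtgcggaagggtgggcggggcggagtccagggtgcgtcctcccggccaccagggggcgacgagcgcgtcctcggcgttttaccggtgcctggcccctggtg
Atp5g2: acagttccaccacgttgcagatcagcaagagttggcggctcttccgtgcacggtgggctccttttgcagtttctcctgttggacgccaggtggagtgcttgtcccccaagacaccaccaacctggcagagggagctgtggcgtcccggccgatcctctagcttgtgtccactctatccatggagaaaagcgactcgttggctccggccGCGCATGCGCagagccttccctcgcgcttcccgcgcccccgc
Sdhd: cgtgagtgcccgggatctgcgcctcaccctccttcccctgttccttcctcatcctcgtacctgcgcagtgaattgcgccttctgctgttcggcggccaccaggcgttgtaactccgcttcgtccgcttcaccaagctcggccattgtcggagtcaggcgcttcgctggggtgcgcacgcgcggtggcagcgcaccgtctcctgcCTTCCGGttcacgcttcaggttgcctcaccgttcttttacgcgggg

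The NRF1 core starts 113 bases before the start of Ndufaf4 and 42 bases before that of Atp5g2. It was found on 5 of 74 member promoters (6.76%), against 1.55% of the 11938 promoters of genes tested on the array and 0.877% of all 27018 genes with an entry. The other 3 promoters with it were those of Atp5k, Cox6a1 and Ndufa11. The ETS core was found on 13 of 74 (17.6%), against 13.2% of tested genes, and the cAMP response element TGACGTCA on 4 (5.41%), against 2.76%. The estrogen-related receptor element TCAAGGTCA occurred on 1 member promoter, that of Atp5g3, or 1.35% against 0.343%. The PPAR element, AGGTCA repeated after a gap of 1 base, was on 0 of 74, as on nearly all promoters (0.0586% of tested genes). The E-box CACGTG was on 9.46% against 9.14%, the GC box GGGCGG on 40.5% against 56.1%, the CCAAT box on 45.9% against 39.6% and the YY1 core on 1.35% against 0.452%. Both strands were searched for all 9 motifs, the estrogen-related receptor and PPAR elements share the letters AGGTCA, and members had a median GC content of 57.2% against 58.4% for tested genes. These are matches of letters in a short window, and no binding was measured.

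At the brightest probe of each gene, CL316243 left most subunit transcripts within a narrow range in both genotypes. Dimmer probes, some with larger falls in LKO, are described further below. In LWT livers 2 of the 90 members were higher and 16 lower with the agonist at an adjusted p under 0.05, while 38.3% of all genes were called (18.9% higher, 19.4% lower). In LKO livers 3 were higher and 20 lower, against 40.3% of all genes (20.9% higher, 19.4% lower). The median difference over the members was -0.04 in LWT and -0.03 in LKO, against 0.01 and 0.03 over all genes. Groups did not overlap for 7 members in LWT (20.4% of all genes) and for 14 in LKO (20.8%). Because the members have high signals, the share called was also taken over the 1589 genes with a mean level of 5 or more, and it was 30.7% in LWT and 33.9% in LKO. Among the 75 subunits of the complexes, 1 was higher and 7 were lower in LWT and 1 was higher and 12 were lower in LKO. For 65 of the 75 in LWT and 67 in LKO the 95% confidence interval of the difference lay within 1.25-fold.

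The number of members called lower depended on the scaling. With quantile normalization it was 35 in LWT and 32 in LKO, with 2 and 3 called higher, and with the authors' deposited log2 table it was 34 and 33. The median over the members in LWT was then -0.12 under either scaling, while the median over all genes was -0.03 and -0.02. The counts of subunits that fell are given below for a scaling in which the class as a whole is nearly level, and the class lies lower with the agonist under quantile normalization and in the authors' deposited table.

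**Figure D1:**
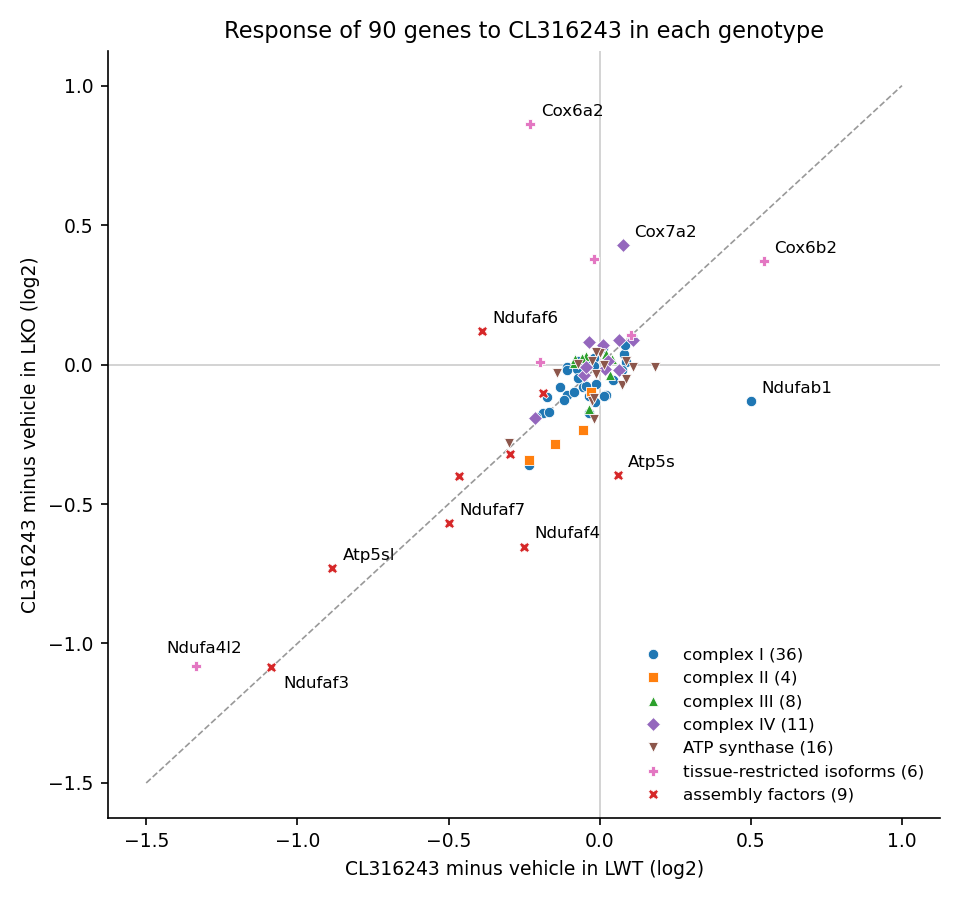
Log2 difference between CL316243 and vehicle in LWT livers (horizontal axis) and in LKO livers (vertical axis) for the 90 genes that passed the filter, with 6 mice in each group; symbols give the class and the dashed line marks equal effects. Most subunits lie near 0 on both axes, assembly factors extend down the diagonal to Ndufaf3 at -1.09 and -1.08, and Ndufab1 lies apart at 0.50 and -0.13.

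Complex I, the NADH dehydrogenase, had 1 subunit higher and 4 lower of 36 in LWT livers and 6 lower in LKO livers. Over all genes 19.4% were called lower in each genotype, and 18.9% in LWT and 20.9% in LKO were called higher. The subunit that rose was Ndufab1, the mitochondrial acyl carrier protein, which sits in complex I and also carries the acyl chain in mitochondrial fatty acid and lipoic acid synthesis. Its level in LWT was 5.81 at the lowest, 5.90 at the median and 5.97 at the highest with vehicle, and 6.27, 6.39 and 6.49 with CL316243. In LKO it was 5.96, 6.13 and 6.25 with vehicle and 5.92, 5.99 and 6.06 with CL316243. Every treated LWT mouse was above every mouse of the other groups, whereas the LKO groups overlapped. The difference was 0.50 ± 0.05 (SE, 1.41-fold, adjusted p = 2.15e-07) in LWT and -0.13 ± 0.05 (adjusted p = 0.0531) in LKO. The interaction, which is the LKO effect minus the LWT effect, was -0.63 ± 0.08 (adjusted p = 1.06e-05), and within the 3 slides it was -0.67, -0.66 and -0.57.

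Ndufab1 also differed between genotypes within each treatment. Under vehicle it was higher in LKO than in LWT livers by 0.23 ± 0.05 (adjusted p = 0.0241), with overlap through 1 LKO mouse at 5.96. Under CL316243 it was lower in LKO livers by 0.40 on the log2 scale (-0.40 ± 0.05, adjusted p = 9.78e-06), without overlap. A second, dimmer probe lies elsewhere in the gene (mm9 chr7:129231667-129231726, against chr7:129234361-129234420 for the brighter, both on the minus strand) and belongs to another transcript record of the array. It read 1.71, 1.85 and 1.90 in the LWT vehicle group, 2.54, 2.73 and 3.05 in treated LWT livers, 1.80, 1.91 and 2.04 in the LKO vehicle group and 1.92, 2.01 and 2.15 in treated LKO livers. Treated LWT livers again stood above all others. At this probe the response was 0.93 in LWT and 0.10 in LKO and the interaction -0.82, while the difference between vehicle groups was 0.09 and was not called (limma adjusted p over all probes = 0.851). With the threshold kept, the interaction was called under all 15 alternatives in processing that were run. The response in LKO was called under 8 of 16 alternatives, with values from -0.19 to 0.10 and adjusted p from 0.00948 to 0.857. Leaving out any 1 of 3 arrays also led to a call of this response (adjusted p down to 0.0168). The difference under vehicle was called under 12 of 16, and leaving out 1 of 6 arrays ended the call (adjusted p up to 0.0762): LWT vehicle replicate 1 or 2, or LKO vehicle replicate 1, 2, 5 or 6.

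**Figure D2:**
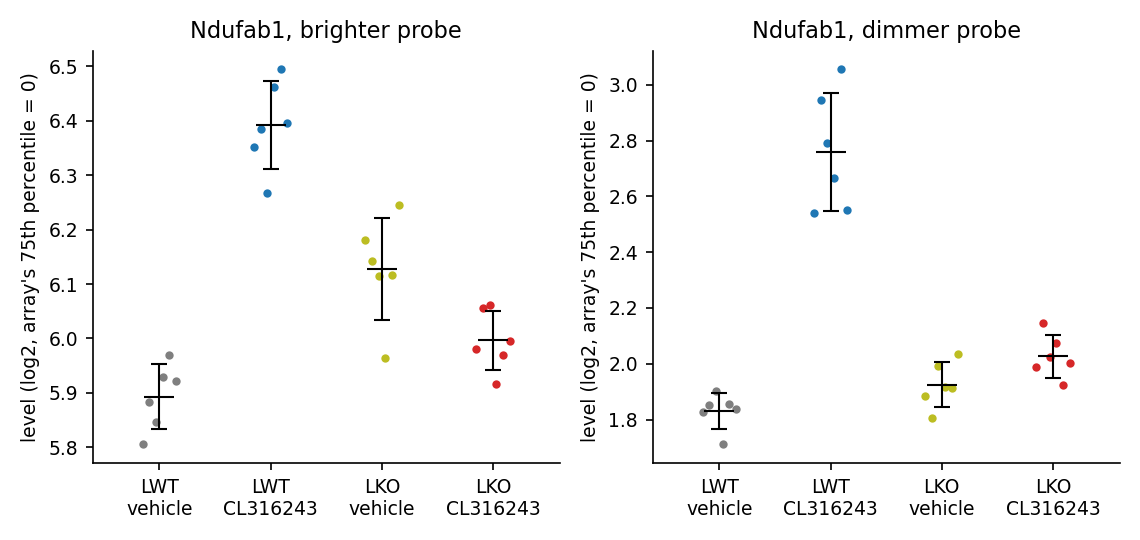
Ndufab1 level (log2, the array's 75th percentile at 0) in each mouse at the brighter probe (left) and the dimmer probe (right); points are mice, 6 a group, bars are mean ± SD. Treated LWT mice lie at 6.27 to 6.49 and at 2.54 to 3.05, above every mouse of the other groups at both probes.

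The complex I subunits that fell in both genotypes were Ndufa6, Ndufb4, Ndufb10 and Ndufv3. The largest of these differences were those of Ndufb10, a membrane-arm subunit, which read 6.75, 6.94 and 7.01 in the LWT vehicle group, 6.38, 6.73 and 6.83 in treated LWT livers, 6.86, 6.92 and 7.13 in the LKO vehicle group and 6.41, 6.60 and 6.74 in treated LKO livers. The groups overlapped in LWT and not in LKO. It fell by 15% in LWT (-0.23 ± 0.08, adjusted p = 0.0191) and by 22.0% in LKO (-0.36 ± 0.08, adjusted p = 0.000794). Ndufv3, of the NADH-binding module, fell by 13.5% and 12.3% at its brightest probe, but a dimmer probe gave 0.19 in LKO (adjusted p = 0.231), so its direction was not shared by its probes. Ndufa11 and Ndufc2 were called lower in LKO alone, with differences of -0.13 and -0.17, but their interactions were not called (adjusted p = 0.428 and 0.475).

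Complex II, the succinate dehydrogenase that also serves the citric acid cycle, had 1 of 4 subunits called lower in LWT and 3 of 4 in LKO. In each genotype 19.4% of all genes were called lower. The flavoprotein subunit Sdha was not called at its brightest probe. It read 5.18, 5.33 and 5.36 in the LWT vehicle group, 5.20, 5.26 and 5.41 in treated LWT livers, 5.22, 5.34 and 5.38 in the LKO vehicle group and 5.14, 5.21 and 5.32 in treated LKO livers, and all groups overlapped. The differences were -0.03 (95% interval -0.13 to 0.08) in LWT and -0.10 (-0.20 to 0.01) in LKO. In LKO it was called lower under 3 of 16 alternatives, quantile normalization, the authors' deposited table and the mean of its probes (-0.22, adjusted p = 0.0177).

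The other 3 subunits of complex II were called lower in LKO. Sdhd, a membrane anchor, went from 6.17, 6.26 and 6.33 with vehicle to 5.89, 6.01 and 6.21 with CL316243 in LWT, and from 6.10, 6.19 and 6.24 to 5.65, 5.85 and 6.06 in LKO. The LWT groups overlapped and the LKO groups did not. It fell by 14.9% in LWT (-0.23 ± 0.06, adjusted p = 0.00562) and by 21.1% in LKO (-0.34 ± 0.06, adjusted p = 2e-04). The iron-sulfur subunit Sdhb fell by 17.8% in LKO (-0.28 ± 0.07, adjusted p = 0.00337), against -0.15 (adjusted p = 0.114) in LWT. The anchor Sdhc fell by 15% in LKO (-0.23 ± 0.06, adjusted p = 0.00181), against -0.05 (adjusted p = 0.473). None of the 4 interactions of complex II was called at the brightest probes, where they ran from -0.18 to -0.07.

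None of the 8 subunits of complex III was called in either genotype, against 38.3% of all genes in LWT and 40.3% in LKO. Differences lay between -0.09 and 0.04 in LWT and between -0.16 and 0.04 in LKO, with every 95% interval within 1.25-fold. Uqcrc1, a core protein of the complex, read 5.30, 5.50 and 5.65 in the LWT vehicle group, 5.32, 5.56 and 5.63 in treated LWT livers, 5.46, 5.53 and 5.61 in the LKO vehicle group and 5.36, 5.51 and 5.60 in treated LKO livers. All 4 groups overlapped. The difference was 0.03 (-0.10 to 0.17) in LWT and -0.04 (-0.17 to 0.10) in LKO. The lowest adjusted p of the complex was that of Uqcrfs1, the Rieske iron-sulfur protein, in LKO (-0.16, adjusted p = 0.0555).

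Among the 11 genes counted with complex IV, the cytochrome c oxidase, Cox7a2 rose in LKO. Cox7a2l, placed with this complex by its name, fell in both genotypes. Cox7a2, the form of subunit 7a found in liver, read 6.52, 6.69 and 6.74 in the LWT vehicle group, 6.66, 6.72 and 6.91 in treated LWT livers, 6.32, 6.51 and 6.87 in the LKO vehicle group and 6.87, 6.92 and 7.28 in treated LKO livers. The LKO groups met at 6.87 without crossing, and the LWT groups overlapped. It rose by 0.43 ± 0.08 in LKO (1.34-fold, adjusted p = 0.000319), against 0.08 (adjusted p = 0.496) in LWT, and the interaction of 0.35 was not called (adjusted p = 0.0926). Cox7a2l fell by 13.9% in LWT (adjusted p = 0.024) and 12.4% in LKO (adjusted p = 0.0419).

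In the ATP synthase 1 of 16 members fell in LWT and 2 in LKO, against 19.4% of all genes in each genotype. Atp5g2, 1 of 3 genes for the proton-carrying c subunit, went from 6.49, 6.56 and 6.74 with vehicle to 5.94, 6.33 and 6.61 with CL316243 in LWT and from 6.44, 6.52 and 6.64 to 6.16, 6.18 and 6.39 in LKO. Groups overlapped in LWT and not in LKO. It fell by 18.8% (-0.30 ± 0.08, adjusted p = 0.00583) and 17.7% (-0.28 ± 0.08, adjusted p = 0.00874). The other c subunit genes were not called: Atp5g1 gave -0.01 and 0.05, with a dimmer probe at 0.26 in LWT (adjusted p = 0.0052), and Atp5g3 gave 0.18 (adjusted p = 0.0584) and -0.01. The pseudogene Atp5c1-ps fell by 12.7% in LKO (adjusted p = 0.00262). Its parent Atp5c1 gave -0.13 (adjusted p = 0.089), and signal of a pseudogene and of its parent cannot be told apart where their sequences match.

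The tissue-restricted isoforms include the largest fall among the members. Ndufa4l2, a paralogue of Ndufa4 known as a hypoxia-induced gene, read -0.67, -0.49 and -0.26 in the LWT vehicle group, -2.29, -1.90 and -1.36 in treated LWT livers, -0.83, -0.50 and -0.25 in the LKO vehicle group and -2.19, -1.70 and -1.07 in treated LKO livers. Treated and vehicle mice did not overlap in either genotype. It fell by 60.4% in LWT (-1.34 ± 0.17, adjusted p = 1.82e-06) and by 52.7% in LKO (-1.08 ± 0.17, adjusted p = 2.83e-05), and the interaction was 0.26 (adjusted p = 0.629).

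Cox6b2, an isoform known from testis, was the member that was higher with the agonist in both genotypes. It read -2.61, -2.38 and -2.20 in the LWT vehicle group, -2.20, -1.80 and -1.60 in treated LWT livers, -3.10, -2.84 and -2.64 in the LKO vehicle group and -2.84, -2.46 and -2.19 in treated LKO livers. The LWT groups met at -2.20 without crossing, and the LKO groups overlapped. It rose by 0.54 ± 0.12 in LWT (adjusted p = 0.00121) and 0.37 ± 0.12 in LKO (adjusted p = 0.019), and the LKO call was lost without LKO CL316243 replicate 3 or without LKO vehicle replicate 1 (highest adjusted p = 0.0524) and in the authors' deposited table (0.20, adjusted p = 0.0859). Between genotypes it was lower in LKO by 0.62 under CL316243 (-0.62 ± 0.12, adjusted p = 0.000824).

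Cox6a2, the muscle form of subunit 6a, was near background and rose in LKO, from -5.71, -4.18 and -3.77 with vehicle to -4.00, -3.65 and -3.02 with CL316243 (0.86 ± 0.28, adjusted p = 0.0162). In LWT it read -4.37, -4.14 and -3.69 with vehicle and -4.90, -4.38 and -3.32 with CL316243, and groups overlapped in both genotypes. The summed level of the 3 skeletal muscle markers that passed the filter ran from -2.15 to -1.87 in LKO vehicle and from -2.10 to -0.37 in LKO CL316243, against -2.24 to 0.01 and -2.05 to -0.64 in LWT, and the muscle genes Ckm and Mb did not pass it. The part of muscle RNA in the Cox6a2 value was not tested. Cox4i2, Cox7a1 and Cox7b2 were not called in any comparison.

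The assembly factors stood apart from the subunits. Of the 9 factors that share the names, 8 were called lower with CL316243 in LWT and 7 in LKO, against 19.4% of all genes in each genotype. In either genotype 0 of the factors were higher, against 18.9% and 20.9% of all genes, and their medians were -0.39 and -0.40. Their median per array, taken relative to the LWT vehicle mean, ran from -0.09 to 0.08 in LWT vehicle and from -0.06 to 0.08 in LKO vehicle, against -0.45 to -0.26 and -0.59 to -0.43 in the treated groups, without overlap. For the 75 subunits the same median ran from -0.14 to 0.10, -0.18 to 0.10, -0.12 to 0.10 and -0.16 to 0.00 in the order LWT vehicle, treated LWT, LKO vehicle and treated LKO, and all 4 groups overlapped. Within the 3 slides the median over the assembly factors was -0.16, -0.43 and -0.38 in LWT and -0.35, -0.47 and -0.57 in LKO. Their differences had a median SE of 0.09, against 0.07 over all members. The factors whose levels are given below had lower signals than the subunits of the complexes whose levels are given above. The share called was not taken over all genes at the signal level of the factors.

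**Figure D3:**
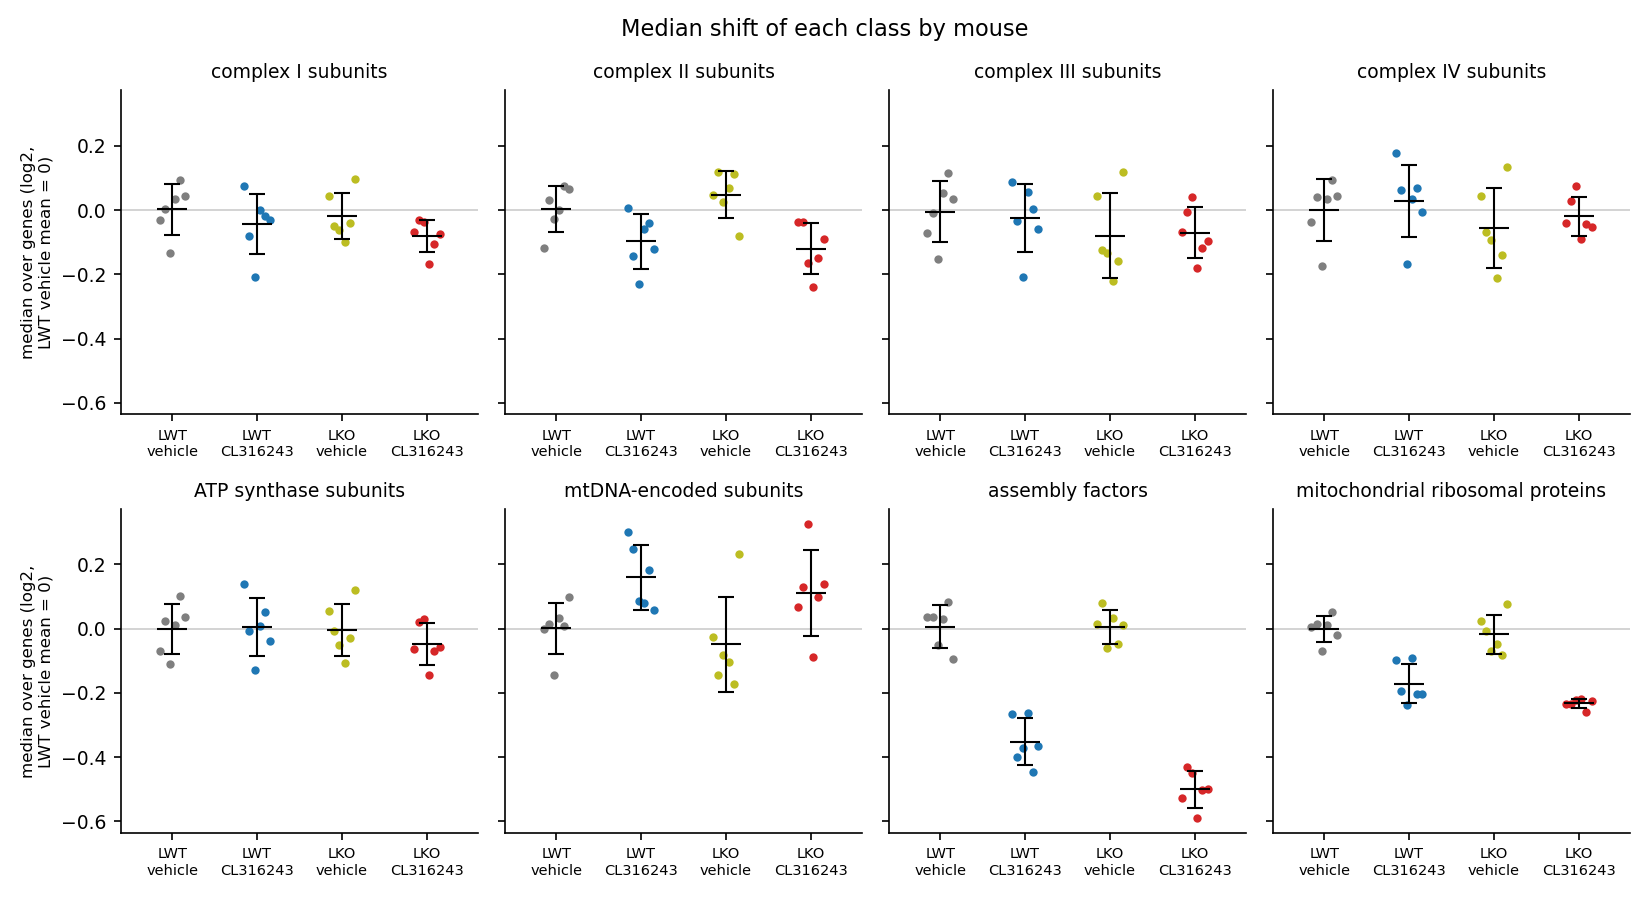
Median over the genes of each class in each mouse (log2, relative to each gene's LWT vehicle mean); points are mice, 6 a group, and bars are mean ± SD. Treated mice of both genotypes lie below vehicle mice for the assembly factors (-0.45 to -0.26 and -0.59 to -0.43) and the mitochondrial ribosomal proteins, and overlap with them for all 5 complexes.

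Ndufaf3, an early factor in the assembly of complex I, fell most. It read 0.77, 0.88 and 1.01 in the LWT vehicle group, -0.61, -0.23 and 0.19 in treated LWT livers, 0.72, 0.87 and 0.96 in the LKO vehicle group and -0.59, -0.23 and 0.05 in treated LKO livers. Treated mice were below all vehicle mice in both genotypes. The fall was 52.9% in LWT (-1.09 ± 0.12, adjusted p = 4.12e-07) and 52.8% in LKO (-1.08 ± 0.12, adjusted p = 7.39e-07), and the interaction was 0.00 (95% interval -0.35 to 0.36).

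Atp5sl, whose current name is Dmac2 and whose product takes part in building the membrane arm of complex I, fell by 45.8% in LWT (-0.88 ± 0.09, adjusted p = 1.03e-07) and 39.7% in LKO (-0.73 ± 0.09, adjusted p = 2.16e-06). It read 3.21, 3.43 and 3.54 in the LWT vehicle group, 2.32, 2.43 and 2.82 in treated LWT livers, 3.25, 3.46 and 3.67 in the LKO vehicle group and 2.59, 2.73 and 2.81 in treated LKO livers, without overlap in either genotype. Ndufaf7, an arginine methyltransferase that modifies a complex I subunit, fell by 29.2% and 32.6%, and Ndufaf1, part of the intermediate assembly complex of complex I, by 27.6% and 24.2%. For these 2 factors, too, treated mice lay below all vehicle mice of their genotype: Ndufaf7 at 1.69 or less against 1.76 to 2.03 in LWT and at 1.12 to 1.41 against 1.74 to 1.99 in LKO, and Ndufaf1 at 2.23 to 2.59 against 2.70 to 2.96 and 2.34 to 2.54 against 2.66 to 3.02. Ndufaf2 was called in LWT alone (-0.19, adjusted p = 0.0246, against -0.10 in LKO). Ndufaf5 was called at its brightest probe (-0.30 and -0.32) and not at a dimmer one (0.18 and 0.02).

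Ndufaf4 and Ndufaf6, both needed for complex I assembly, responded differently in the 2 genotypes. Ndufaf4 read 2.69, 2.79 and 2.97 in the LWT vehicle group, 2.43, 2.54 and 2.77 in treated LWT livers, 2.76, 2.87 and 3.03 in the LKO vehicle group and 2.09, 2.17 and 2.48 in treated LKO livers. Groups overlapped in LWT and not in LKO. It fell by 15.9% in LWT (-0.25 ± 0.07, adjusted p = 0.00961) and by 36.4% in LKO (-0.65 ± 0.07, adjusted p = 7.9e-07), with an interaction of -0.40 ± 0.10 (adjusted p = 0.0224) that was called under 14 of 15 alternatives at the same threshold, the exception being no filter on dim probes (adjusted p = 0.0687).

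Ndufaf6 moved the other way. It read 1.97, 2.08 and 2.16 in the LWT vehicle group, 1.33, 1.74 and 1.98 in treated LWT livers, 2.12, 2.21 and 2.33 in the LKO vehicle group and 2.04, 2.26 and 2.68 in treated LKO livers, and all treated LWT mice lay below all treated LKO mice. It fell by 23.7% in LWT (-0.39 ± 0.11, adjusted p = 0.0054) and gave 0.12 in LKO (adjusted p = 0.385). The interaction of 0.51 ± 0.15 passed narrowly (adjusted p = 0.0468). It was called under 6 of 15 alternatives and lost when any 1 of 18 of the 24 arrays was left out (adjusted p up to 0.0852), with values from 0.44 to 0.57, and the dimmest of its probes gave 0.09. Atp5s, whose current name is Dmac2l, was placed with the assembly factors by its name. Its level fell in LKO alone (-0.40 ± 0.11, adjusted p = 0.00797), and its interaction of -0.46 was not called (adjusted p = 0.11).

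**Figure D4:**
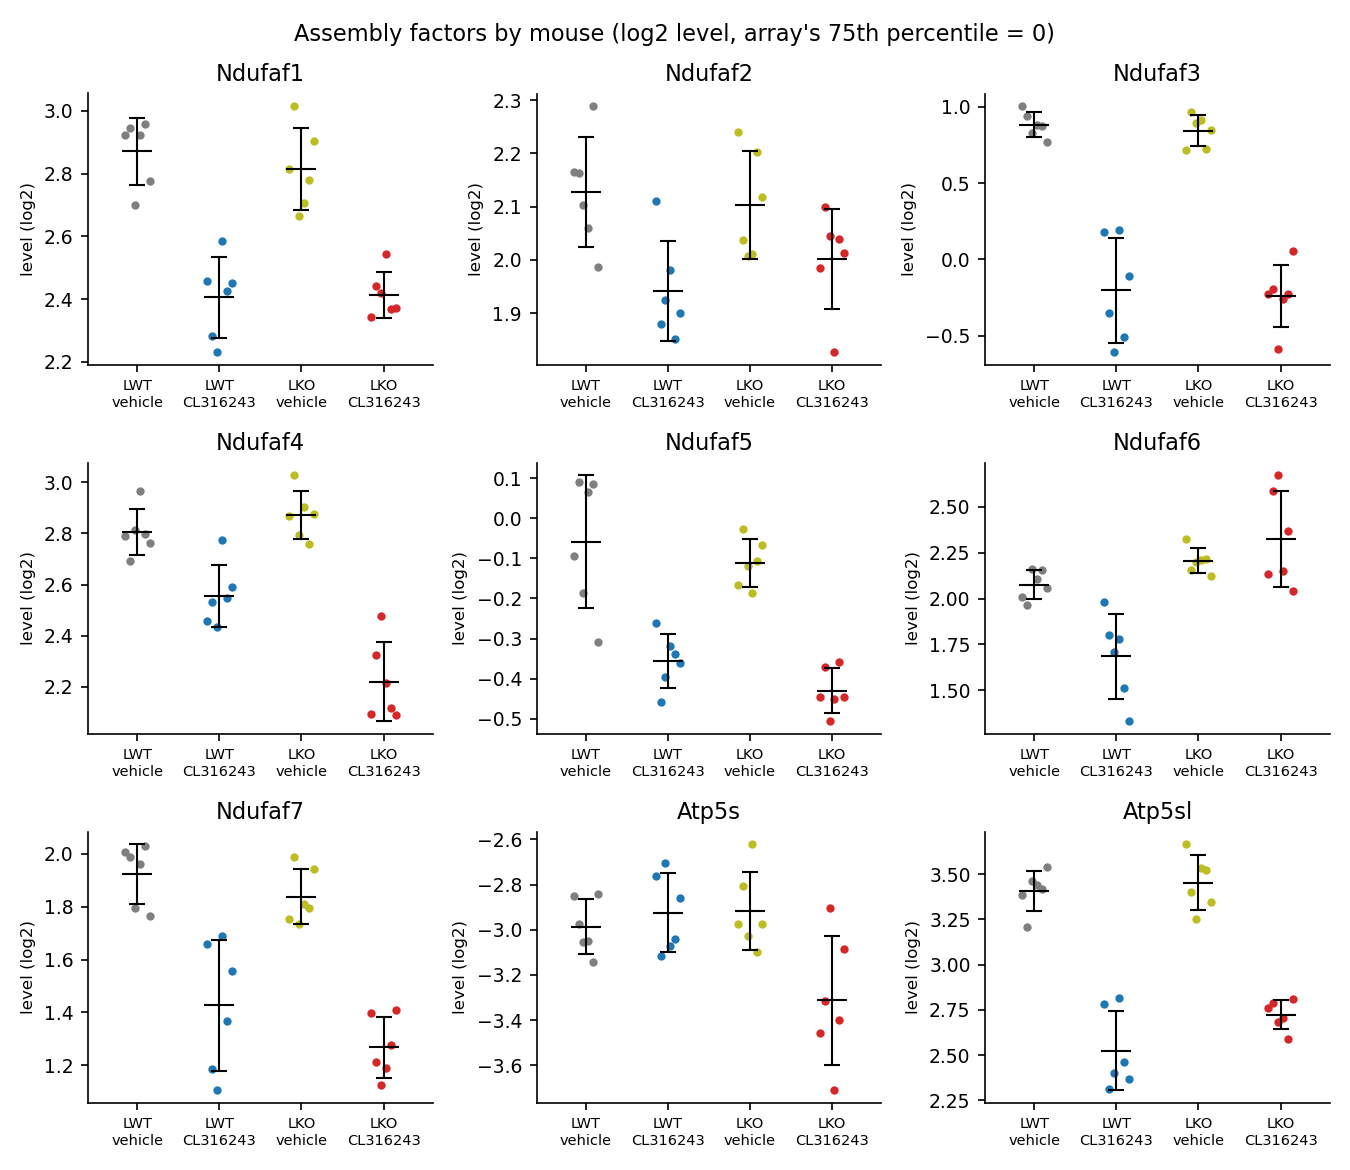
Level of each of the 9 assembly factors in each mouse (log2, the array's 75th percentile at 0); points are mice, 6 a group, and bars are mean ± SD, with a separate vertical scale in each panel. Treated mice lie below vehicle mice of their genotype without overlap for Ndufaf1, Ndufaf3, Ndufaf7 and Atp5sl, and Ndufaf6 is lower with CL316243 in LWT (-0.39) but not in LKO (0.12).

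At the brightest probes, the share of members called between genotypes under vehicle was near that of all genes. Under vehicle 1 of 90 members was called, Ndufab1, against 1.18% of all genes (0.398% higher, 0.778% lower), and 2 members did not overlap (1.8% of all genes), Cox6b2 (-0.45, adjusted p = 0.0844) and Cox7a1 (-0.41, adjusted p = 0.112), an isoform of heart and muscle. Among the 40 dimmer probes described below, 1 was called higher in LKO under vehicle and 0 lower. It was an upstream probe of Sdhb (0.35, limma adjusted p over all probes = 0.00471), against 0.22 at the brightest probe of Sdhb. Under CL316243 2 members were higher in LKO and 4 lower, against 15.9% of all genes called (7.74% higher, 8.17% lower), and the groups did not overlap for 2 (6.57% of all genes), Ndufab1 and Ndufaf6. The members higher in LKO were Ndufaf6 (0.64 ± 0.11, adjusted p = 0.000133) and Cox7a2 (0.25 ± 0.08, adjusted p = 0.0465). The call of Cox7a2 was lost when any 1 of 16 arrays was left out (adjusted p up to 0.1) and under 6 of 16 alternatives (adjusted p up to 0.125). The members lower in LKO were Cox6b2, Ndufab1, Atp5s (-0.39 ± 0.11, adjusted p = 0.0218) and Ndufaf4 (-0.34 ± 0.07, adjusted p = 0.00233), of which Atp5s was lost without LWT CL316243 replicate 3 or without LKO CL316243 replicate 4 (adjusted p up to 0.0584) and under 4 of 16 alternatives (adjusted p up to 0.16, values from -0.40 to -0.15). For the interaction 3 members were called, Ndufab1, Ndufaf4 and Ndufaf6, against 5.41% of all genes (2.17% higher, 3.24% lower).

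Second probes of the members gave larger interactions than the brightest ones. Of 40 dimmer probes of 31 genes that were above background on all 24 arrays, 32 had a negative interaction, 8 were called lower and 0 higher (5.96% of all probes were called), and the median was -0.16 against -0.01 at the brightest probes of the same genes. Of the 40, 11 lay on the same transcript at least 200 bases upstream of the brightest probe, and all of these were negative, with a median of -0.25 against -0.08. The share of negative interactions was not taken over such probes of all genes, so these signs are not shown to be particular to the members. Those called among the 11 belonged to Atp5a1 (-0.45), Atp5b (-0.72), Ndufa10 (-0.37), Ndufb5 (-0.25), Sdha (-0.42) and Sdhb (-0.32). At the upstream Sdha probe CL316243 gave 0.09 in LWT and -0.33 in LKO (adjusted p over all probes in LKO = 0.00379). The other called probes were those of Ndufab1 (-0.82) and Atp5g3 (-0.80). The response in LKO had a median of -0.25 over the 11 upstream probes, against -0.10 at the brightest ones. Of the 11, 7 were called lower and 0 higher. In LWT their median was 0.05 against -0.03, with 1 called lower and 0 higher. Over all 40 dimmer probes, 12 were called lower and 1 higher in LKO, and 4 and 4 in LWT. Over all genes 19.4% were called lower in each genotype, and 18.9% in LWT and 20.9% in LKO higher. In LKO, dimmer probes also differed in sign from the brightest ones at Ndufb2 (-0.55 against 0.10) and Uqcrb (-0.41 against 0.04), both called at the dimmer probe alone. These dimmer probes had low signals, with levels of -4.04 and -3.03, and that of Ndufb2 is not among the 40. Second probes of higher signal gave 0.14 at Ndufb2 and -0.01 at Uqcrb in LKO, and neither was called.

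An index of upstream minus downstream signal was taken over 3120 transcripts with probes at least 200 bases apart. Its mean was -0.00 in the LWT vehicle group, 0.03 in treated LWT livers, 0.06 in the LKO vehicle group and -0.02 in treated LKO livers. Mice ran from -0.05 to 0.12, -0.02 to 0.13, -0.01 to 0.16 and -0.06 to 0.01 in the same order, and all groups overlapped. Over 11 pairs of member probes the mean was 0.00, 0.08, 0.14 and -0.00. Differences of the index between groups were not tested. The part of this index in the interactions of the upstream probes was not tested. With the index as a covariate the interactions of Ndufab1 and Ndufaf4 at their brightest probes were still called, that of Ndufaf6 was not, and 33 members were called lower in LKO in place of 20.

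**Figure D5:**
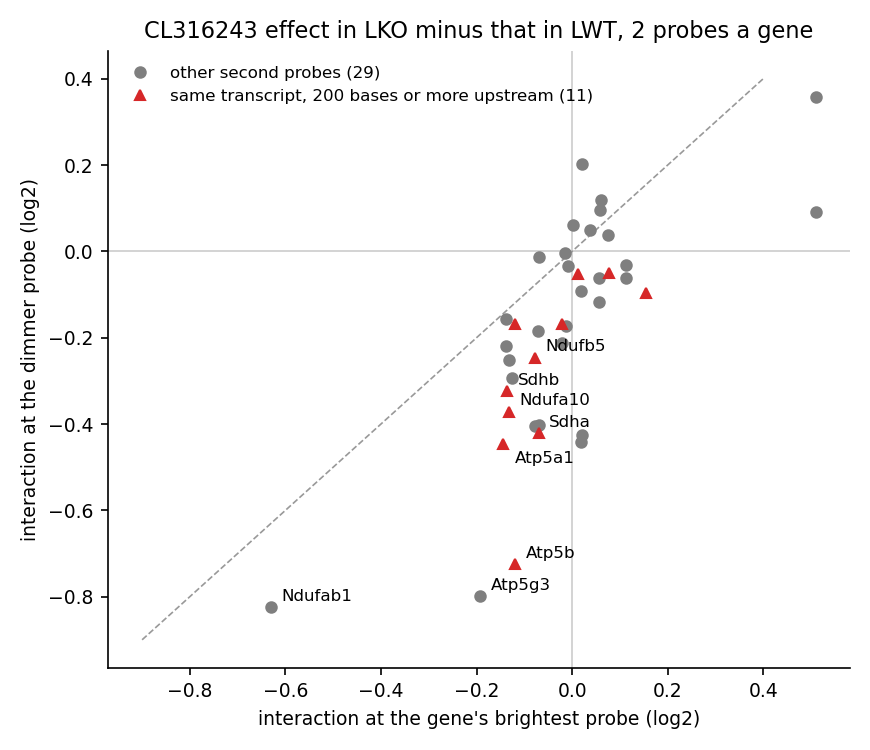
Interaction (CL316243 effect in LKO minus that in LWT, log2) at the brightest probe of a gene (horizontal axis) and at each of its dimmer probes (vertical axis), for 40 probes of 31 genes; triangles mark the 11 probes on the same transcript at least 200 bases upstream, names mark called probes and the dashed line marks equal values. Most points lie below the line, and Ndufab1 lies at -0.63 and -0.82.

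The subunits encoded by mitochondrial DNA join those above in the same complexes. Of 11 such probes 3 were called higher with CL316243 in LWT and 4 in LKO, against 18.9% and 20.9% of all genes, and 0 lower in either, with medians of 0.16 and 0.17. ND5 and ND1 were picked for display after their values were seen. ND5, a proton-pumping subunit of complex I, read 6.18, 6.44 and 6.51 in LWT vehicle and 6.57, 6.66 and 6.87 in LWT CL316243, without overlap, and 6.23, 6.32 and 6.54 against 6.36, 6.65 and 6.83 in LKO, with overlap. It rose by 0.29 ± 0.08 (adjusted p = 0.00863) and 0.25 ± 0.08 (adjusted p = 0.0229). ND1 rose by 0.25 and 0.21 (adjusted p = 0.00763 and 0.0226). No interaction and no difference between genotypes was called among the 11.

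Of 40 assembly factors with other names, 19 were called lower and 4 higher in LWT, and 20 lower and 3 higher in LKO, with medians of -0.25 and -0.23, where 19.4% of all genes were called lower in each genotype. Factors for complex II, named after their values were seen, were among them, Sdhaf4 at -0.71 ± 0.08 and -0.80 ± 0.08 (adjusted p = 4.75e-07 and 2.39e-07) and Sdhaf1 at -1.04 ± 0.27 and -1.13 ± 0.27 (adjusted p = 0.0042 and 0.00199). The exception in genotype was Sco2, a copper chaperone of complex IV, which rose by 1.22 ± 0.15 in LWT and gave 0.26 in LKO (interaction -0.96, adjusted p = 0.00844). Of 77 mitochondrial ribosomal proteins, which make the subunits encoded by mitochondrial DNA, 37 were lower and 5 higher in LWT and 50 lower and 3 higher in LKO, beside the same 19.4% of all genes lower and 18.9% and 20.9% higher.

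Carriers that feed the chain were called for the interaction in 8 of 19 cases, 7 of them with the lower effect in LKO, where 5.41% of all genes were called and 3.24% lower; the subunits had 1 of 75, and the difference between these shares was not tested. Cycs, cytochrome c, read 5.85, 6.04 and 6.07 in the LWT vehicle group, 6.46, 6.62 and 6.73 in treated LWT livers, 5.66, 5.89 and 5.95 in the LKO vehicle group and 5.88, 6.04 and 6.33 in treated LKO livers, with overlap in LKO alone. It rose by 0.62 ± 0.07 in LWT and 0.20 ± 0.07 in LKO (interaction -0.42 ± 0.10, adjusted p = 0.019). Etfdh, which passes electrons from fatty acid oxidation to ubiquinone, rose by 1.22 ± 0.07 in LWT, gave 0.00 in LKO and was lower in LKO by 1.03 on the log2 scale under vehicle (-1.03 ± 0.07, adjusted p = 1.13e-09). Gpd2, the mitochondrial glycerol phosphate dehydrogenase, rose by 1.80 ± 0.24 in LWT against 0.16 in LKO.

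Among 22 regulators of mitochondrial biogenesis, 6 were higher and 5 lower in LWT and 6 higher and 8 lower in LKO. Over all genes 18.9% were higher and 19.4% lower in LWT, and 20.9% and 19.4% in LKO. The coactivator gene Ppargc1a fell in LWT (-1.47 ± 0.40, adjusted p = 0.00513) and gave 0.62 in LKO (interaction 2.09, adjusted p = 0.0282), and Ppargc1b gave 0.30 in LWT and fell in LKO (-1.83 ± 0.37, adjusted p = 0.000442; interaction -2.13, adjusted p = 0.0163). Esrra, the estrogen-related receptor that drives respiratory chain genes, fell by 0.54 in LWT and by 0.67 in LKO on the log2 scale. The mitochondrial transcription factor gene Tfam fell in LKO (-0.52 ± 0.11, adjusted p = 0.00066), against -0.18 in LWT, and its interaction was not called (adjusted p = 0.246). Of 13 citric acid cycle enzymes other than succinate dehydrogenase, 5 were higher and 1 lower in LWT, 3 were higher and 3 lower in LKO, and 4 had a lower effect in LKO by the interaction (3.24% of all genes). The inhibitor of the ATP synthase, Atpif1, was not called in any comparison.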

How the data were processed

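The 24 arrays came on 3 slides of 8, each with 2 mice of every group, and each labelled mouse was 1 array. The authors deposited scanner output of Agilent Feature Extraction 10.10.1.1 with background-subtracted processed signals, a linear intensity for each spot, and, per the file headers, probe positions on mm9. The authors also deposited a table of log2 values, used as an alternative, whose column distributions are those of quantile-normalized data. limma is among the tools in the submitters' processing notes.

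Processed signals were put on the log2 scale relative to each array's 75th percentile over gene spots, which lay between 397.4 and 577.7 intensity units, and spots of a probe were averaged. Probes were kept if above background on at least 4 of 6 arrays in any group, with 3 or more values in every group, which left 32037 of 56605 probes. The brightest kept probe stood for a gene. limma 3.58.1 in R 4.3.3 fitted the means of the 4 groups, with Benjamini-Hochberg adjustment over all 21331 genes in each of 5 comparisons and a threshold of 0.05 on adjusted p. The script was tested on simulated data. No spot was saturated, and the median SE of a difference between 2 groups was 0.068 for members. The number of arrays limits the precision. Whether replicate numbers pair the samples was not settled, and the main fit treated the arrays as unpaired. Of 36 pairs of arrays with the same number, 9 had correlated deviations over 0.1. In all, 10 arrays correlated best with an array of their own number. The mean correlation was 0.15 for number 3 and 0.11 for number 4, and between -0.03 and 0.08 for the other numbers. The values to be met without pairing were not computed.

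The members and lists were chosen with earlier results of these data known. Named members are Ndufab1, Sdha and Uqcrc1, the isoforms, in each comparison the 5 called members with the largest differences in each direction, members called for the interaction or between vehicle groups, and members whose probes disagree, except 1 that is not reported here. Genes of other lists are named where called for the interaction or under vehicle, or as regulators set by name, but not every gene so called is named. Those left out include the 4 citric acid cycle enzymes called for the interaction and the 1 carrier called with a higher effect in LKO. Other named genes were chosen after their values were seen. Alternatives were other background corrections, scalings, filters, probe choices, blocks, weights and arrays left out in turn.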

Additional observations from a re-analysis of the deposited data

Results flagged for a closer look

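Among 88 groups of 6 mice examined for a mouse apart from the others, 2 had one, where chance gives about 1 in 20 groups. Uqcrc1 was lowest in LWT CL316243 replicate 3, at 5.32, with the next mouse at 5.52. Cox4i2 was highest in LKO vehicle replicate 6, at -1.16, with the next mouse at -1.37. The CL316243 effect differed between genotypes, by the limma interaction, for Ndufab1 (-0.63), Ndufaf4 (-0.40) and Ndufaf6 (0.51), as described with their groups above.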

How the results depend on the processing

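Counts are of members called, and medians are of log2 differences over members. Quantile normalization gave 35 lower in LWT, with a median of -0.12, 32 lower in LKO and 2 higher for the interaction, and the authors' deposited log2 table gave 34 and -0.12 in LWT, 33 lower in LKO and 2 higher in LKO under vehicle. For the interaction 0 members were higher with median centring, no filter, the mean of a gene's probes, a slide block, slide and row blocks, the index covariate, the most upstream probe and the dimmest probe. Without the filter 1 was lower for the interaction, 0 differed under vehicle and 1 was higher in LKO under CL316243. The mean of probes gave 4 higher in LWT, 6 lower for the interaction and 8 lower in LKO under CL316243. With slide blocks, with or without rows, 1 was lower in LKO under vehicle, and with rows 1 was higher under CL316243. With the replicate number as a block, 1 was higher in LKO under CL316243, and no other count moved by over 1.5 times. With the compared groups alone 0 were higher under vehicle and 1 under CL316243. Array weights gave 2 higher for the interaction, 2 lower under vehicle and 7 lower under CL316243, and an intensity trend gave 4 higher in LWT. A 1.5-fold requirement left 0 higher and 3 lower in LWT, 1 and 4 in LKO, 0 and 1 for the interaction, 0 higher under vehicle, and 1 and 1 under CL316243.

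Chosen after seeing the data, the most upstream probe gave 6 lower for the interaction, 2 higher under vehicle and 1 under CL316243. The dimmest probe gave 5 higher in LWT, 7 lower for the interaction and 1 higher under CL316243. The index covariate gave 33 lower in LKO with a median of -0.13, an interaction median of -0.13, 2 higher under vehicle, and 1 higher and 9 lower under CL316243. On single slides the median under vehicle was 0.061 on slide 1 and -0.14 on slide 3, and under CL316243 0.0499 on slide 2 and -0.18 on slide 3. The cause of these shifts was not tested.

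With another choice of probe some directions reversed. In LKO Ndufv3 gave 0.00 (0.0026) with the mean of probes and 0.19 with the upstream or dimmest, Ndufb2 -0.55 with the upstream and Uqcrb -0.41 with the dimmest, and Ndufaf5 gave 0.18 in LWT and 0.0158 in LKO, and Atp5g1 0.26 in LWT. Leaving out 1 array at a time gave, for higher, lower and median, 2 to 3, 12 to 17 and -0.06 to -0.01 in LWT, 2 to 3, 15 to 23 and -0.05 to -0.02 in LKO, 0 to 1, 2 to 3 and -0.04 to 0.02 for the interaction, 0 to 1, 0 to 1 and -0.05 to -0.01 under vehicle, and 1 to 2, 3 to 7 and -0.07 to -0.01 under CL316243. Of the isoforms, Cox6a2 and Cox7b2 were not above background on every array.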
